A study of Mus musculus with 32 samples.

Results

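The E2F transcription factors and the retinoblastoma (RB) family of pocket proteins were followed as 10 genes, out of 54281 gene identifiers in a table of RNA sequencing counts from bone marrow-derived macrophages (BMDMs). They are the activator genes E2f1, E2f2 and E2f3, the repressor genes E2f4 and E2f6, the atypical repressor genes E2f7 and E2f8, and the pocket protein genes Rb1, Rbl1 (which encodes p107) and Rbl2 (p130). The rows were taken by symbol, in a family that was proposed with earlier results of these data known, and all 10 passed the filter on low counts. BMDMs are macrophages grown from bone marrow in culture. Mice carried Cre fused to a tamoxifen-dependent receptor (R26-CreERT2) in all groups, together with either 2 floxed Trex1 alleles (Trex1 FL/FL, below FL/FL) or a floxed and an intact one (Trex1 WT/FL, below WT/FL), so that no group was free of Cre or of a floxed allele. Differentiation in L929-conditioned medium took 6 days. Part of the cultures then received 4-hydroxytamoxifen (4-OHT), the drug that activates this Cre, at 2 µg/ml over 22 h, and RNA was taken 1, 2, 3 or 4 days later. With 2 libraries for every genotype, treatment and day, there were 16 groups and 32 libraries. The labels name no animal, age, batch or replicate number, so that the p-values measure the spread between these libraries, which may be technical, and libraries are numbered here only to name them.

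E2F proteins bind DNA next to a DP partner and switch the genes for DNA replication on or off. In quiescent cells, E2F4 sits with p130 or p107 and the MuvB proteins on these genes in the DREAM complex, which keeps them silent. RB holds the activator E2Fs until cyclin D and cyclin E kinases phosphorylate it as a cell enters the cycle. E2F7 and E2F8 bind without a DP partner, and their genes, like E2f1, E2f2 and Rbl1, are themselves switched on by E2F in cycling cells. E2F6 has no pocket protein binding region and represses together with a variant Polycomb complex, PRC1.6. Macrophages of the bone marrow divide in response to macrophage colony-stimulating factor and leave the cycle as they mature or are activated.

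Promoter stretches of 6 members are shown because most of the members encode factors that bind such sequences and because these 6 hold a match to the letters searched. RefSeq promoter windows on GRCm38.p6 run from 250 bases before to 50 bases after a start site, and 8 members had 10 windows. E2f4 and Rb1 had no entry. The letters searched, on both strands, were TTTCCCGC, TTTCGCGC, TTTGCCGC and TTTGGCGC for E2F, and TTTGAA and TTCGAA for the cell cycle homology region (CHR), an element that MuvB binds. The E2F and CHR letters hold no common match. Capitals mark the letters found, or their reverse complement where the match lies on the other strand, and all stretches are written 5′ to 3′ on the gene's strand.
Rbl1, chr2:157204535-157204634, minus strand: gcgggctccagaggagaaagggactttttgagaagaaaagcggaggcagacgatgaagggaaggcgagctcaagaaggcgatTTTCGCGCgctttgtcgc
E2f7, chr10:110745195-110745294, plus strand: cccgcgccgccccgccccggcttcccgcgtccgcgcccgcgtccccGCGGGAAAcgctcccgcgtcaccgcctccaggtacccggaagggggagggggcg
E2f3, chr13:29986064-29986163, minus strand: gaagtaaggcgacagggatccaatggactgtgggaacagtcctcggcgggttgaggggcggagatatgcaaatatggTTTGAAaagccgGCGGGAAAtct
E2f2, chr4:136172294-136172323, plus strand: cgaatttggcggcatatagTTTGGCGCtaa
E2f8, chr7:48881597-48881696, minus strand: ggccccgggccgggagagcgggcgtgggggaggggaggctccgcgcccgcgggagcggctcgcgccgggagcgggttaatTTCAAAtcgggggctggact
Rbl2, chr8:91069810-91069909, plus strand: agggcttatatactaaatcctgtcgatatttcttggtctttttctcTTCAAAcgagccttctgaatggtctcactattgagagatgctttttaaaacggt
E2F letters occurred in 4 of the 10 windows of the members, of Rbl1, E2f7, E2f3 and E2f2, and in 2.26% of 32851 mouse promoter windows. CHR letters occurred in 4 windows, of E2f3, E2f8, Rbl2 and a second start of E2f2, and in 19.2% of all windows. The windows of E2f1 and E2f6 held neither set of letters, which says only that these letters are not in these windows. The match of E2f2 begins at position 39 after the start site, that of E2f7 at -198 and that of Rbl1 at -18. A match is a description of the letters, not a binding site.

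The libraries held 35120505 to 63760884 counts (median 44841991), and 15257 genes were tested with a model of 16 group means. The 2 libraries of each group were further apart than sampling noise alone would place them (chi-square per degree of freedom of 8.55 to 47), with Pearson's r across genes, which are not independent replicates, of 0.983 to 0.99. Trex1 counts were 0 in both 4-OHT-treated FL/FL libraries on days 1, 3 and 4 and 14 and 9 on day 2, against 758 to 3622 in 4-OHT-treated WT/FL cells. In WT/FL cells Trex1 was also lower after 4-OHT than without it on each day. On day 1 it was at 15 and 12.2 against 32 and 28.6 CPM (counts scaled to a common library size). On day 4 it was at 47.8 and 49 against 78.6 and 89.9 CPM. The genotype differences after 4-OHT are thus taken against WT/FL cells with lowered Trex1 RNA. The transcripts of Trex1 lie wholly within those of Atrip, so that the 2 genes share reads. The 8 macrophage markers summed to 15284 to 48654 CPM and were led by Lyz2. The other lists stayed below that by far: granule genes of neutrophils and progenitors summed to 3.27 to 14.2 CPM, dendritic markers to 0.668 to 2.37, fibroblast markers to 0.0871 to 2.27, mast cell markers to 0 to 0.771, B cell markers to 0 to 0.173 and erythroid markers to 0 to 0.0338. The T cell list reached 52.9 CPM through Cd4, while Cd3e, Cd3d and Cd8a had at most 3 counts in every library.

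On day 1 the most abundant members per length were E2f1, E2f2, E2f8 and Rbl1, though their order among themselves depended on which length was used. Levels are given as CPM per kilobase of annotated exon, and in untreated WT/FL cells on day 1 E2f1 stood at 17 ± 0.131 (SD, n = 2 for each level here). E2f2 followed at 14.2 ± 0.229, E2f8 at 13.8 ± 0.607 and Rbl1 at 13.6 ± 0.819. E2f4 (8.65 ± 0.738), E2f3 (6.28 ± 0.423) and Rb1 (5.27 ± 0.548) formed the middle, and Rbl2 (3.89 ± 0.218), E2f6 (3.65 ± 0.0356) and E2f7 (3.14 ± 0.261) were lowest. E2f2, E2f8 and Rbl1, as well as Rbl2 and E2f6, were apart by less than the sum of their SDs. Per kilobase of the longest transcript, a length chosen after seeing the data, E2f8 (20.8 ± 0.912) and Rbl1 (20.4 ± 1.23) stood above E2f1 (17.2 ± 0.132) and E2f2 (14.6 ± 0.236), with Rb1 next at 12.7 ± 1.32.

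By day 4 the highest levels per length were those of E2f1, Rb1, Rbl2 and E2f4. In the same cells E2f1 was at 10.8 ± 0.605 CPM per kilobase, Rb1 at 7.23 ± 0.0904, Rbl2 at 6.58 ± 0.106 and E2f4 at 6.19 ± 0.071. E2f3 (4.55 ± 0.301), E2f2 (3.07 ± 0.115) and Rbl1 (3.03 ± 0.0981) came next. E2f6 (1.59 ± 0.216), E2f8 (1.4 ± 0.179) and E2f7 (0.231 ± 0.00723) were lowest. E2f2 and Rbl1, and E2f6 and E2f8, were apart by less than the sum of their SDs. The length counts all annotated exons, which for Rb1 is 12063 bases against 5012 in its longest transcript and for Rbl2 11857 against 5373, so that levels per length of such genes are lower than over the longest transcript. Over the longest transcript Rb1 (17.4 ± 0.217) and Rbl2 (14.5 ± 0.234) stood above E2f1 (11 ± 0.613) and E2f4 (6.75 ± 0.0774) on day 4.

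**Figure D1:**
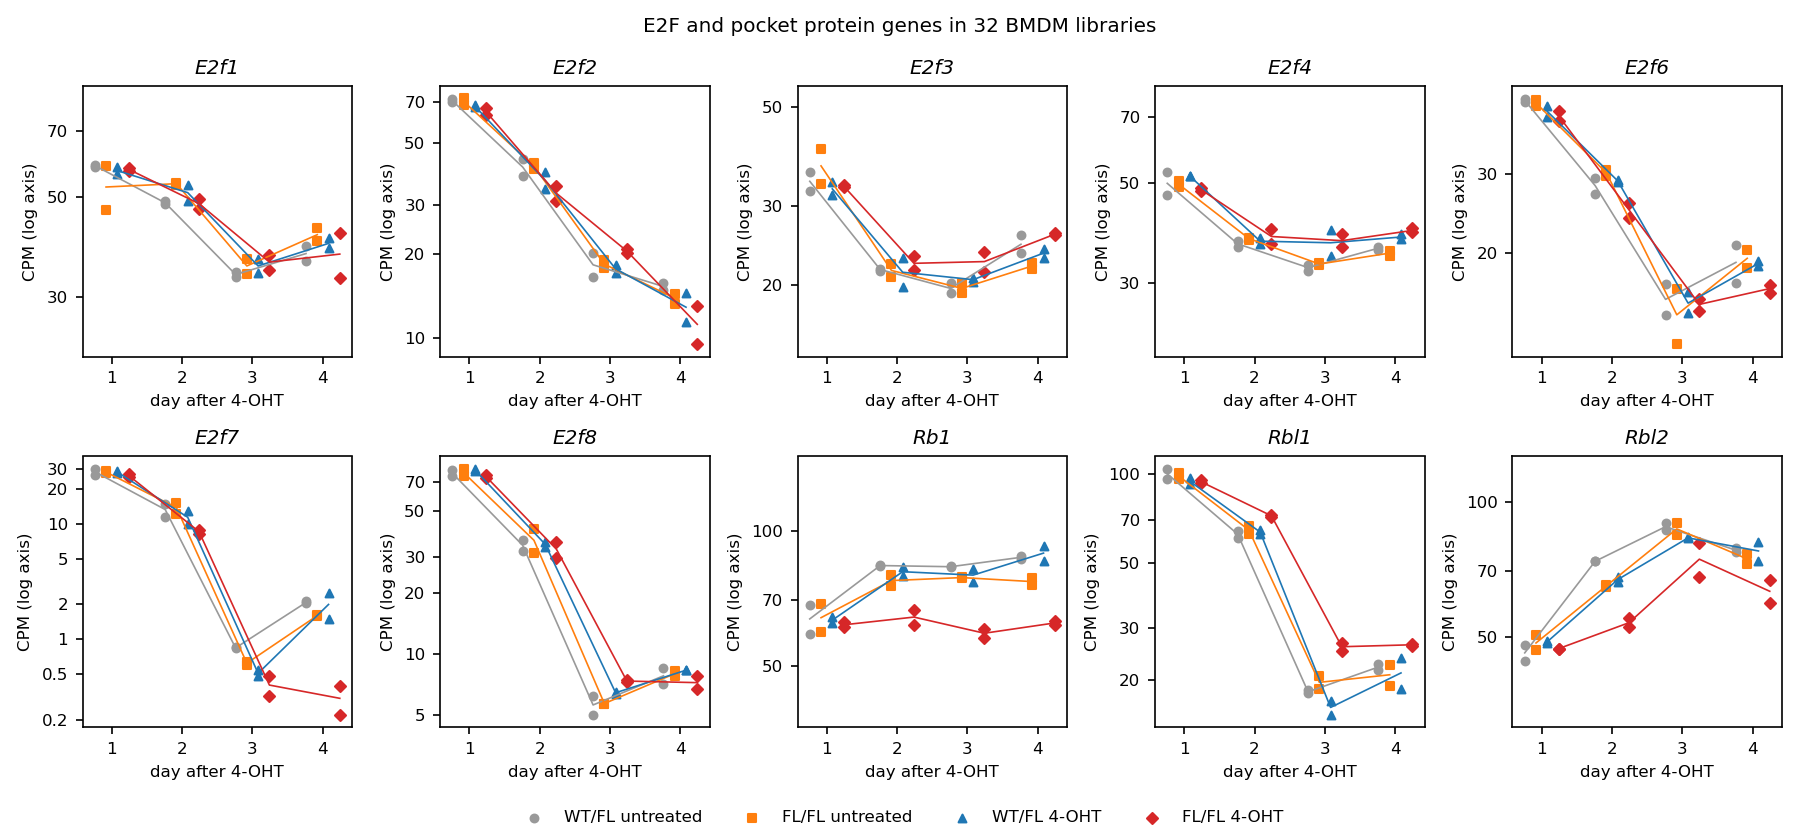
CPM of the 10 members (log axis) against the day after 4-OHT, with 1 point per library and a line through the 2-library means of each genotype and treatment. E2f2, E2f7, E2f8 and Rbl1 fell over the days in all 4 groups. Both red points (4-OHT-treated FL/FL) lay outside all other points of the day for Rb1, Rbl1 and Rbl2 on days 2 to 4. The same held for E2f7 on days 2 and 4, and on some days in other panels.

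Between day 1 and day 4, 4 members (E2f2, E2f7, E2f8 and Rbl1) fell past an adjusted p of 0.01 and a log2 fold change of -1.5, the study's thresholds, in each of the 4 combinations of genotype and treatment. Among all genes tested 7.16% fell this far in untreated WT/FL cells, 7.74% after 4-OHT, 7.6% in untreated FL/FL cells and 8.9% after 4-OHT. At any fold 8 of 10 members were lower on day 4 in each group, all E2f genes and Rbl1, where 26.3%, 26.7%, 26.7% and 27.7% of all genes were lower. Rbl2 was higher in each group and Rb1 in 3 of 4, against 27.5%, 27.7%, 27.7% and 28.3% of all genes. All adjusted p here come from the quasi-likelihood test of edgeR, with the adjustment of Benjamini and Hochberg over 15257 genes. In bulk RNA, fewer cells of a type and less RNA per cell cannot be told apart.

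The activator genes differed in how far they fell. E2f2 was at 71.7 and 70.1 CPM in the untreated WT/FL libraries on day 1 and at 15.7 and 14.9 on day 4, and in the 4-OHT-treated FL/FL libraries it was at 62.8 and 66.6 and then 13 and 9.5. No day 4 library came near the day 1 range. The log2 change was -2.21 ± 0.118 (SE here and below; adjusted p = 1.47e-14) in the former and -2.52 ± 0.122 (adjusted p = 1.5e-15) in the latter, and -2.34 and -2.39 in the other 2 groups.

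E2f1 and E2f3 fell much less. E2f1 went from 58.4 and 59 CPM on day 1 to 36 and 38.9 on day 4 in untreated WT/FL cells, a log2 change of -0.65 ± 0.0892 (adjusted p = 3.57e-07). The change was -0.54 and -0.63 after 4-OHT in WT/FL and FL/FL cells and -0.35 ± 0.0883 (adjusted p = 0.00101) in untreated FL/FL cells, where the 2 day 1 libraries lay far apart at 58.5 and 46.7 CPM. This last value missed the threshold without day 1 library 1 (-0.18, adjusted p = 0.0953) or without day 4 library 1 (-0.30, adjusted p = 0.0227). E2f3 changed by -0.36 to -0.74 over the 4 groups. Its lowest level was reached on day 2 or 3, with 19.2 and 20.2 CPM on day 3 in untreated WT/FL cells after 32.5 and 35.7 on day 1 and before 25.9 and 23.6 on day 4.

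Among the repressor genes E2f6 fell more than E2f4. E2f6 was at 44.1 and 43.5 CPM on day 1 and 20.9 and 17.2 on day 4 in untreated WT/FL cells, with log2 changes of -1.13 to -1.28 over the 4 groups and a largest adjusted p of 1.14e-10. E2f4, the main E2F of quiescent cells, went from 52.9 and 46.9 CPM to 36 and 35.5 in the same cells. Its log2 change ranged from -0.30 ± 0.0652 (adjusted p = 0.000218) in 4-OHT-treated FL/FL cells to -0.51 ± 0.0648 (adjusted p = 9.05e-08) in untreated ones.

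The atypical genes fell furthest of all members in these data. E2f8 was at 79.5 and 74.7 CPM on day 1, at 36.3 and 31.9 on day 2, at 5.02 and 6.2 on day 3 and at 7.09 and 8.5 on day 4 in untreated WT/FL cells. The log2 changes from day 1 to day 4 were -3.27 to -3.36 over the 4 groups, a 9.63-fold to 10.2-fold fall. E2f7 was at 30 and 26.6 CPM on day 1, 15 and 11.5 on day 2, 0.833 and 0.847 on day 3 and 2.13 and 2.04 on day 4 in these cells. Its day 1 to day 4 change was -3.76 ± 0.184 in untreated and -3.79 ± 0.181 in 4-OHT-treated WT/FL cells, -4.13 ± 0.189 in untreated FL/FL cells and -6.42 ± 0.246 in 4-OHT-treated ones.

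The pocket protein genes moved in opposite directions over the same days. Rbl1 (chr2:156987813-157046475, minus strand, GRCm39), whose product p107 is abundant in cycling cells, went from 104 and 96 CPM on day 1 to 18.5 and 18.1 on day 3 and 21.7 and 22.7 on day 4 in untreated WT/FL cells. Rbl2 (chr8:91796664-91850492, plus strand), whose product p130 is abundant in resting cells, went from 47.9 and 44.3 CPM to 86.3 and 89.7 and then 78.9 and 77.1. The log2 changes from day 1 to day 4 were -2.17 ± 0.0867 for Rbl1 (adjusted p = 5.68e-18) and 0.76 ± 0.0701 for Rbl2 (adjusted p = 2.58e-10), and no day 1 library overlapped a day 4 library for either gene. Over the 4 groups they ranged from -1.83 to -2.24 for Rbl1 and from 0.42 to 0.76 for Rbl2.

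Rb1 (chr14:73421113-73563507, minus strand, GRCm39) varied least of all members, over 0.59 log2 units between its lowest and highest group means, against 6.38 for E2f7. It rose from 68.3 and 58.9 CPM on day 1 to 86.4 and 88 on day 4 in untreated WT/FL cells, a log2 change of 0.46 ± 0.0668 (adjusted p = 1.07e-06), and by 0.49 after 4-OHT. In untreated FL/FL cells the change was 0.27 ± 0.0665 (adjusted p = 0.000995), which missed the threshold without day 1 library 1 (0.17, adjusted p = 0.0465) or day 4 library 2 (0.24, adjusted p = 0.0132). In 4-OHT-treated FL/FL cells it was 0.01 ± 0.0674 (adjusted p = 0.882).

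On day 1 after 4-OHT no member passed the test between FL/FL and WT/FL cells. The log2 differences of the 10 members lay between -0.11 and 0.02 with standard errors of 0.0638 to 0.151. At an unadjusted p under 0.05 there were 0 members and 308 of the 15257 genes. Of all genes 0.0131% passed both thresholds and 0.0197% the adjusted p alone on that day. DESeq2, the other tool run, also had 0 members below an adjusted p of 0.01.

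On day 2 after 4-OHT, 2 of 10 members, Rb1 and Rbl2, were lower in FL/FL cells at an adjusted p below 0.01, where 8.17% of all genes passed. With edgeR and with DESeq2, 0 members passed the fold threshold as well, which 0.583% of all genes did. An unadjusted p under 0.05 was found for 5 members and for 3509 of the 15257 genes. Rb1 was at 61.8 and 66.5 CPM in the FL/FL libraries and at 82.9 and 79.2 in the WT/FL libraries, without overlap, a log2 difference of -0.34 ± 0.0668 (adjusted p = 0.000635). Rbl2 was at 52.5 and 55.1 CPM against 68 and 66.2, also without overlap, a difference of -0.32 ± 0.0697 (adjusted p = 0.00184). Without WT/FL library 1 the difference was -0.31 for Rb1 (adjusted p = 0.0141) and -0.30 for Rbl2 (adjusted p = 0.023), and without FL/FL library 1 it was -0.29 for Rb1 (adjusted p = 0.029) and -0.28 for Rbl2 (adjusted p = 0.0457). Without WT/FL library 2 Rbl2 had a difference of -0.34 (adjusted p = 0.0106). The summed macrophage markers stood at 26592 to 28611 CPM in the FL/FL libraries of day 2 against 32009 to 34060, and their part in these differences was not tested.

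On day 3 after 4-OHT the pocket protein genes diverged, with Rb1 lower and Rbl1 higher in FL/FL cells. These were 2 of 10 members at an adjusted p below 0.01, where 12.1% of all genes passed. With edgeR or DESeq2, 0 members passed the fold threshold as well, against 0.872% of all genes. An unadjusted p under 0.05 was found for 3 members and for 4477 of the 15257 genes. Rbl1 was at 25.2 and 26.8 CPM in the FL/FL libraries and at 15.3 and 17.1 in the WT/FL libraries. Both FL/FL libraries lay above all 6 other libraries of that day, which held 15.3 to 20.7 CPM. The untreated libraries, at 18.5 and 18.1 (WT/FL) and 20.7 and 18.7 (FL/FL), all lay above the 4-OHT-treated WT/FL libraries. The log2 difference was 0.69 ± 0.0885 (adjusted p = 1.87e-06), a 1.61-fold higher level. Rb1 was at 57.8 and 60.4 CPM against 82.3 and 76.8, a difference of -0.43 ± 0.0668 (adjusted p = 2.92e-05). Both differences kept an adjusted p below 0.01 in each of 32 fits that left out 1 library. Rbl2 was at 68.1 and 80.9 CPM against 83.3 and 82.9, and its difference of -0.15 ± 0.0686 did not pass (adjusted p = 0.127). The macrophage markers summed to 38921 to 39308 CPM in these FL/FL libraries and to 45691 to 48068 in the WT/FL libraries, and their part in the day 3 differences was not tested.

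**Figure D2:**
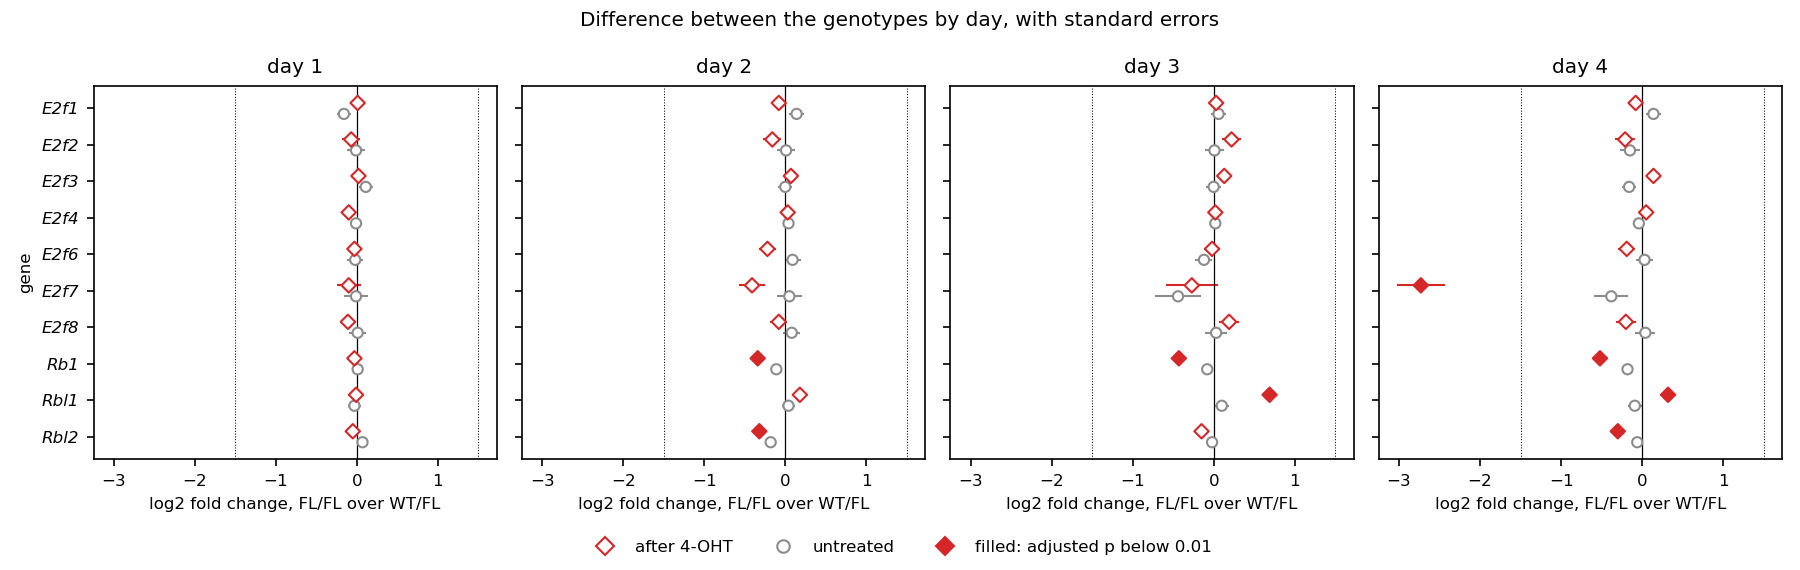
Log2 fold change of FL/FL over WT/FL cells for each member on each day, after 4-OHT (diamonds) and in untreated cells (circles), with standard errors and dotted lines at -1.5 and 1.5. Filled symbols have an adjusted p below 0.01: Rb1 and Rbl2 on day 2, Rb1 and Rbl1 on day 3, and Rb1, Rbl1, Rbl2 and E2f7 on day 4, where E2f7 is at -2.73.

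On day 4 after 4-OHT, E2f7 was 6.63-fold lower in FL/FL cells, the 1 member past both thresholds, which 2.98% of all genes passed. E2f7 lies at chr10:110581300-110623245 on the plus strand of GRCm39. Its CPM were 0.221 and 0.393 in the FL/FL libraries, from counts of 8 and 13, and 2.52 and 1.49 in the WT/FL libraries, from counts of 149 and 69. The untreated cells held 2.13 and 2.04 (WT/FL) and 1.61 and 1.6 (FL/FL), so that both 4-OHT-treated FL/FL libraries lay below all 6 others of the day. The log2 difference was -2.73 ± 0.292 (adjusted p = 2.74e-08) and ranged from -3.18 to -2.29 when single libraries were left out, with an adjusted p below 0.01 in each of the 32 fits.

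The other 3 groups had gained E2f7 between day 3 and day 4. It rose by a log2 change of 1.31 ± 0.231 (adjusted p = 0.000141) in untreated and of 2.00 ± 0.244 (adjusted p = 9.17e-07) in 4-OHT-treated WT/FL cells, and by 1.37 ± 0.26 (adjusted p = 0.000298) in untreated FL/FL cells. In 4-OHT-treated FL/FL cells the CPM were 0.322 and 0.479 on day 3 and 0.221 and 0.393 on day 4, a change of -0.45 ± 0.384 (adjusted p = 0.496). The genotype difference itself changed from day 3 to day 4 by -2.46 ± 0.455 (adjusted p = 0.000664). Without day 3 library 2 of the 4-OHT-treated FL/FL cells this was -2.09 (adjusted p = 0.0503), and without their day 4 library 1 it was also -2.09 (adjusted p = 0.0123).

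In that step E2f7 was 1 of 3 members that passed at an adjusted p below 0.01 in untreated WT/FL cells (12.3% of all genes), 1 of 3 in 4-OHT-treated ones (12.2%) and 1 of 3 in untreated FL/FL cells (13.6%). In 4-OHT-treated FL/FL cells 1 member passed (9.33% of all genes), E2f2, which fell from 20.9 and 20.2 to 13 and 9.5 CPM, a log2 change of -0.87 ± 0.123 (adjusted p = 1.83e-05). The other passing values were small and each missed the threshold in at least 1 fit that left out a library. E2f3 and E2f8 in untreated and E2f2 in 4-OHT-treated WT/FL cells lay close to the threshold. They also missed it without some libraries of other groups, with values unchanged at 0.33, 0.47 and -0.44. In untreated WT/FL cells E2f3 had 0.33, with 0.29 (adjusted p = 0.0799) and 0.37 (0.0299) without day 3 libraries 1 and 2 and 0.26 (0.142) and 0.40 (0.0107) without day 4 libraries 1 and 2. E2f8 had 0.47, with 0.32 (adjusted p = 0.181) without day 3 library 1 and 0.34 (0.13) without day 4 library 2. In 4-OHT-treated WT/FL cells E2f2 had -0.44, with -0.40 (adjusted p = 0.0793) and -0.49 (0.0296) without day 3 libraries 1 and 2 and -0.29 (0.164) without day 4 library 2, and Rbl1 had 0.39, with 0.31 (0.0567) without day 3 library 1 and 0.21 (0.131) without day 4 library 2. In untreated FL/FL cells E2f6 had 0.41, with 0.23 (adjusted p = 0.201) without day 3 library 2, 0.35 (0.0709) without day 4 library 1 and 0.47 (0.0108) without day 4 library 2, and E2f8 had 0.49, with 0.45 to 0.52 and adjusted p of 0.0292 to 0.0527 without any one of its 4 libraries. Over the change of the genotype difference from day 3 to day 4, E2f7 was the 1 member that passed, where 3.7% of all genes did.

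E2f8, the other atypical gene, did not pass on day 4. Its CPM were 7.75 and 6.69 in the 4-OHT-treated FL/FL libraries and 8.32 and 8.3 in the WT/FL libraries, a log2 difference of -0.20 ± 0.125 (adjusted p = 0.251). Its exons overlap those of Gm2788 on the other strand, which was at 0.831 and 0.969 CPM against 0.338 and 0.497. E2f7 shares 2.17% of its 31-base words with other genes and E2f8 17.5%.

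The pocket protein genes made up the other members at an adjusted p below 0.01 on day 4, so that 4 of 10 members passed where 21.5% of all genes did. The median log2 difference of the 10 members was -0.19, against -0.037 over all genes. Rb1 was at 63 and 61.6 CPM in the FL/FL libraries and at 85.7 and 92.4 in the WT/FL libraries, a log2 difference of -0.52 ± 0.067 (adjusted p = 7.23e-07), which held in each fit without 1 library. Both FL/FL libraries were below all 6 others of the day, which held 75.7 to 92.4 CPM. Rbl2 was at 59.6 and 66.8 CPM against 73.8 and 81.5, a difference of -0.30 ± 0.0694 (adjusted p = 0.00145). It missed the threshold without FL/FL library 1 (-0.22, adjusted p = 0.0612) and without WT/FL library 2 (-0.23, adjusted p = 0.0464).

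Rbl1 was at 26.2 and 26.5 CPM in the FL/FL libraries of day 4 and at 18.7 and 23.8 in the WT/FL libraries, a log2 difference of 0.32 ± 0.0878 (adjusted p = 0.00632). The 2 WT/FL libraries lay far apart here. Without WT/FL library 1 it was 0.15 (adjusted p = 0.286), and without either FL/FL library it was 0.32 (adjusted p = 0.0353) or 0.31 (adjusted p = 0.0369).

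Reads of neighbouring genes could enter some of these counts, since the strand of the libraries is not given in the sources used here. Exons of Rbl2 overlap 4194 bases of Aktip on the other strand. Aktip was at 18.2 and 19.8 CPM in the 4-OHT-treated FL/FL libraries of day 4 and at 25.2 and 26.4 in the WT/FL libraries, a log2 difference of -0.44 ± 0.104 (adjusted p = 0.00155), beside the -0.30 of Rbl2. On day 2 Aktip differed by -0.30 ± 0.104 (adjusted p = 0.0618). Rb1 overlaps 488 bases of Rcbtb2 and 408 bases of Lpar6. Rcbtb2 and Lpar6 differed by -0.14 and -0.37 on day 2 (adjusted p = 0.437 and 0.0362). On day 3 both passed, at -0.52 ± 0.0943 and -0.60 ± 0.108 (adjusted p = 0.000281 and 0.000272). On day 4 they had -0.20 and -0.45 (adjusted p = 0.12 and 0.00232). From day 1 to day 4 in untreated WT/FL cells Rcbtb2 rose from 67.2 and 66.3 to 172 and 158 CPM. Lpar6 rose from 22.2 and 25.1 to 80.4 and 88 CPM. The part of these neighbours in the Rbl2 and Rb1 values, between genotypes or days, was not tested.

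The remaining E2f genes passed the test between the 4-OHT-treated genotypes on no day. On day 4 the log2 differences were -0.08 ± 0.0899 for E2f1, -0.21 ± 0.125 for E2f2, 0.14 ± 0.0879 for E2f3, 0.05 ± 0.0654 for E2f4 and -0.19 ± 0.104 for E2f6, with adjusted p of 0.193 to 0.634. E2f1 was at 41.6 and 33 CPM in the FL/FL libraries and at 40.5 and 38.4 in the WT/FL libraries, which overlap. E2f4 was at 38.9 and 39.6 against 38.4 and 37.5, and E2f6 at 16.3 and 17 against 18.7 and 19.2, both without overlap but within the spread that the fit allows. On days 1 to 3 the differences of these 5 genes lay between -0.22 and 0.22.

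In the controls no member passed an adjusted p of 0.01. Between untreated FL/FL and WT/FL cells 0 members passed on each day, with 0%, 0%, 0% and 0.0655% of all genes passing on days 1 to 4. At an unadjusted p under 0.05 there were 0, 1, 0 and 1 members, against 1129, 588, 468 and 2414 of the 15257 genes. The members at an unadjusted p under 0.05 were Rbl2 on day 2 (-0.18 ± 0.0689) and Rb1 on day 4 (-0.18 ± 0.0665). Both were lower in untreated FL/FL cells, the direction also seen after 4-OHT on these days (-0.32 and -0.52). E2f7 had the widest difference in untreated cells on days 3 and 4, at -0.44 ± 0.287 and -0.38 ± 0.211. Between 4-OHT-treated and untreated WT/FL cells 0 members passed either, with 0.00655%, 0.0918%, 0.341% and 0.216% of all genes. At an unadjusted p under 0.05 there were 0, 0, 2 and 0 members, against 378, 530, 1281 and 1080 of the 15257 genes. On day 3 E2f7 was lower in these cells after 4-OHT, at 0.476 and 0.536 CPM against 0.833 and 0.847, though from few counts (25 and 24 against 39 and 35). E2f4 was higher, at 34.4 and 39.2 against 32.9 and 31.9.

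Within FL/FL cells, 4-OHT-treated against untreated, 3 members passed on day 2 (11.1% of all genes), 2 on day 3 (15.7%) and 4 on day 4 (21.4%). This comparison shares its treated libraries with the genotype comparison. On day 4 E2f7 was lower by -2.39 ± 0.307 (adjusted p = 5.38e-07) and on day 3 Rb1 by -0.41 ± 0.0671 (adjusted p = 3.36e-05), and both held in each fit without 1 library. On day 2 E2f7 was at 8.22 and 8.91 CPM after 4-OHT and at 15.3 and 12.2 without it, a difference of -0.68 ± 0.161 (adjusted p = 0.00278). It missed the threshold without untreated library 1 (-0.51, adjusted p = 0.0737), 4-OHT library 1 (-0.63, adjusted p = 0.0454) or 4-OHT library 2 (-0.74, adjusted p = 0.0163). The pocket protein genes also missed it without single libraries. On day 2 Rb1 (-0.27) had -0.23 (adjusted p = 0.0691) without untreated library 2 and -0.22 (0.0943) without 4-OHT library 1, and Rbl2 (-0.27) had adjusted p of 0.0187 to 0.0863 without any one of its 4 libraries. On day 3 Rbl1 (0.40) had 0.33 (adjusted p = 0.0372) without untreated library 2 and 0.36 (0.0231) without 4-OHT library 2. On day 4 Rb1 (-0.31) had -0.28 (adjusted p = 0.0116) without untreated library 2 and -0.29 (0.0124) without 4-OHT library 2. Rbl1 (0.34) had 0.22 (adjusted p = 0.138) without untreated library 1 and 0.35 (0.022) and 0.33 (0.0264) without 4-OHT libraries 1 and 2. Rbl2 (-0.24) had -0.21 (adjusted p = 0.0891) and -0.28 (0.0166) without untreated libraries 1 and 2 and -0.16 (0.175) without 4-OHT library 1.

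The genotype difference after 4-OHT was also set against that in untreated cells, as the interaction of genotype and treatment. On days 1 and 2 no member passed (0.00655% and 4.04% of all genes). An unadjusted p under 0.05 was found for 0 and 2 members, against 545 and 2492 of the 15257 genes. On day 3 Rbl1 passed, at 0.58 ± 0.126 (adjusted p = 0.00313), as 1 of 10 members where 4.65% of all genes did. It missed the threshold without any of 4 day 3 libraries, with 0.57 (adjusted p = 0.015) without untreated WT/FL library 1, 0.51 (adjusted p = 0.0327) without 4-OHT-treated WT/FL library 1, 0.51 (adjusted p = 0.0302) without untreated FL/FL library 2 and 0.54 (adjusted p = 0.0199) without 4-OHT-treated FL/FL library 2. On day 4 E2f7 passed, at -2.35 ± 0.374 (adjusted p = 3.45e-05), where 10.4% of all genes did, and the value stayed below an adjusted p of 0.01 in each of 32 fits without 1 library. Rb1 had interactions of -0.35 on day 3 (adjusted p = 0.0183) and -0.34 on day 4 (adjusted p = 0.0129), which did not pass except where either day 1 library of untreated FL/FL cells was left out (0.00697 and 0.00708 on day 3, 0.00468 and 0.00469 on day 4) or, on day 4, either day 1 library of untreated WT/FL cells (0.00644 and 0.00649). Rbl1 had 0.41 on day 4 (adjusted p = 0.0223), with 0.59 (0.000813) without 4-OHT-treated WT/FL library 2 and 0.53 (0.00643) without untreated FL/FL library 2.

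From day 1 to day 4 the genotype difference after 4-OHT changed for 2 of 10 members, where 10.6% of all genes passed. The change was -2.63 ± 0.336 for E2f7 (adjusted p = 1.45e-06) and -0.48 ± 0.0944 for Rb1 (adjusted p = 0.000456).

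Ratios of members within a library do not depend on how libraries are scaled, though the overlap of Rbl2 with Aktip enters them too. The ratio of Rbl1 to Rbl2, as CPM per kilobase on the log2 scale, fell from 1.82 and 1.81 on day 1 to -1.17 and -1.07 on day 4 in untreated WT/FL libraries. The day on which it crossed 0 depended on the length used, since on day 2 it was at 0.49 and 0.41 over all annotated exons and at -0.07 and -0.15 over the longest transcripts. After 4-OHT it stood at 1.16 and 1.07 in the FL/FL libraries of day 2 against 0.58 and 0.65 in the WT/FL libraries. On day 3 it was at -0.74 and -0.90 against -1.76 and -1.59, and on day 4 at -0.49 and -0.64 against -1.29 and -1.09. The groups did not overlap on days 2, 3 and 4, with the FL/FL libraries higher each time.

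The genotype difference in the log2 ratio of Rbl1 to Rbl2 was 0.04 at first, then 0.50, 0.85 and 0.62 on days 2 to 4, and 0.50 as the mean over days. A two-sided exact permutation test, with genotype labels permuted within days, gave p = 0.00309 for the mean, or 0.00926 with Benjamini-Hochberg adjustment over the 3 ratios tested. The untreated libraries were not part of this test, so that it does not set the difference against that without 4-OHT. With 2 libraries against 2, the smallest exact p for a single day is 0.333. The p over days would be too small if libraries of different days came from the same animals, which the labels do not say.

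The balance of activator to repressor E2f genes differed little between the genotypes. The log2 ratio of E2f1, E2f2 and E2f3 together to E2f4 and E2f6 together was 1.59 and 1.62 in the FL/FL and 1.53 and 1.55 in the WT/FL libraries on day 1 after 4-OHT, and 1.26 and 0.97 against 1.20 and 1.14 on day 4. The mean difference over days was 0.01 (exact permutation p = 0.829, adjusted over 3 ratios 0.829). The ratio of E2f7 and E2f8 together to the activators fell from -1.09 and -1.19 on day 1 to -3.78 and -3.70 on day 4 in 4-OHT-treated FL/FL libraries, and from -1.07 and -1.03 to -3.41 and -3.43 in WT/FL libraries. Its difference was -0.32 on day 4 and -0.10 over days (exact permutation p = 0.102, adjusted 0.153). The libraries of the genotypes did not overlap in this ratio on day 4, nor on day 1, at a difference of -0.09. In the ratio of activators to repressors they did not overlap on days 1 and 3, at differences of 0.06 and 0.08.

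**Figure D3:**
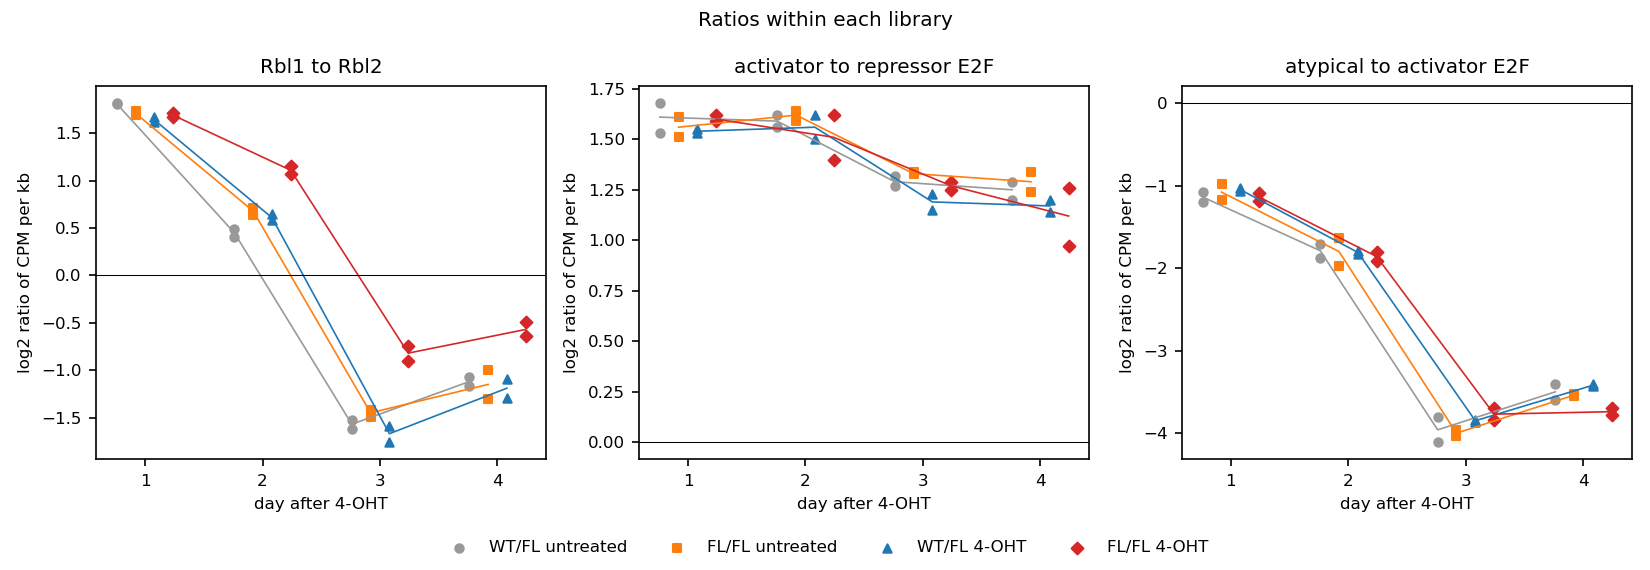
Log2 ratios of CPM per kilobase within each library against the day, for Rbl1 to Rbl2, activator to repressor E2f genes and atypical to activator E2f genes, with 1 point per library and lines through the 2-library means. The red points (4-OHT-treated FL/FL) lie above the others for Rbl1 to Rbl2 on days 2 to 4, while the points of the middle panel span 0.97 to 1.68.

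The genes that work with the E2F and RB proteins were read from 8 lists of 88 genes, described by counts and medians. On day 4 after 4-OHT 11.7% of all genes tested were lower and 9.84% higher in FL/FL cells at an adjusted p below 0.01. The G1/S targets of E2F encode replication and nucleotide synthesis enzymes. Of 32 targets tested, 20 were lower and 0 higher in FL/FL cells at an adjusted p below 0.01, 6 of them also past the fold threshold, with a median log2 difference of -0.53 against -0.04 over all genes. Ccna2, the S phase cyclin, had the largest fall, from 14.9 and 15.3 CPM in the WT/FL libraries to 1.3 and 1.21 in the FL/FL libraries, a difference of -3.58 ± 0.129 (adjusted p = 2.51e-17). On days 1, 2 and 3 the lower and higher targets numbered 0 and 0, 3 and 1, and 4 and 1. Of all 15257 genes, 2 and 1, 378 and 868, and 827 and 1021 were lower and higher on these days. Between day 1 and day 4 all 32 targets fell in all 4 groups, where 26.3% to 27.7% of all genes fell, with medians of -2.60 and -2.64 in WT/FL cells with and without 4-OHT, and of -3.04 and -2.62 in FL/FL cells.

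Both DP partners were lower on day 4, with a median of -0.51. Tfdp2 had the larger difference, at 7.25 and 7.51 CPM against 11 and 13.8, or -0.75 ± 0.106 (adjusted p = 2.98e-06). Of 7 MuvB and DREAM genes tested, 3 were lower and 0 higher on day 4, led by Foxm1, a MuvB-bound activator of mitotic genes, at 1.38 and 2.54 CPM against 8.64 and 8.6, or -2.15 ± 0.201 (adjusted p = 3.02e-08). The median of the list was -0.14. Lin54 was not analysed here.

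The RB kinases and cyclins were divided, with 3 of 8 higher and 3 lower on day 4 and a median of -0.14. Ccnd2, which encodes cyclin D2, was at 21.3 and 23.1 CPM in the FL/FL libraries and at 2.09 and 1.47 in the WT/FL libraries, the largest rise, at 3.62 ± 0.193 (adjusted p = 1.42e-13). Ccne2, for cyclin E2, had the largest fall, at 0.554 and 1.48 CPM against 2.38 and 3.26, or -1.48 ± 0.348 (adjusted p = 0.00284). Of 7 INK4 and KIP inhibitor genes 1 was higher and 0 lower, Cdkn1a, which encodes p21, at 489 and 468 CPM against 235 and 227, or 1.05 ± 0.0574 (adjusted p = 9.33e-14), with a list median of -0.06.

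**Figure D4:**
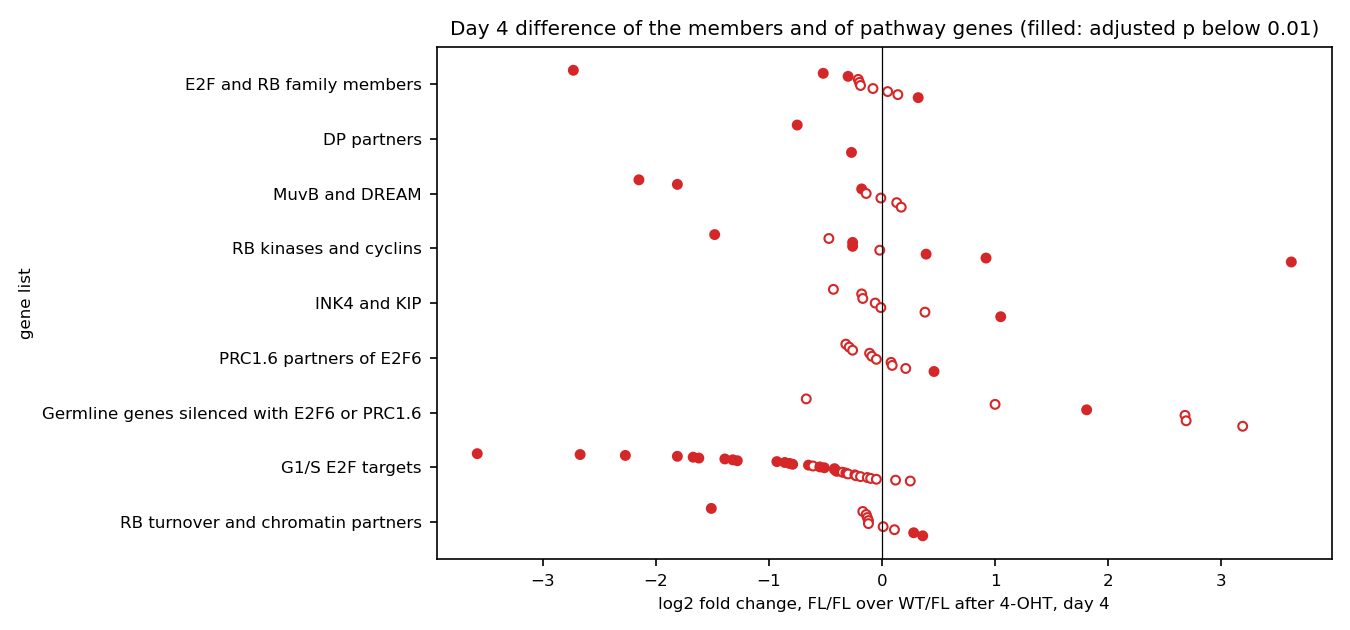
Log2 fold change of 4-OHT-treated FL/FL over WT/FL cells on day 4 for each tested gene of the members and of 8 lists, filled where the adjusted p was below 0.01. The filled points of the G1/S targets (20 of 32) lie left of 0, while Ccnd2 of the RB kinases and cyclins lies at 3.62.

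Of 10 PRC1.6 partners 1 was higher and 0 lower on day 4, Max, the partner of MGA in this complex, at 96.9 and 98.1 CPM against 70 and 71.6, or 0.46 ± 0.0614 (adjusted p = 1.03e-06), with a median of -0.07. Of 11 germline genes that E2F6 or PRC1.6 silences in somatic cells, 6 passed the filter on low counts and 1 was higher, Ddx4, at 3.1 and 1.45 CPM against 0.726 and 0.562, or 1.81 ± 0.512 (adjusted p = 0.0074). The germline genes that did not pass had 0 to 50 counts in each library of day 4 after 4-OHT, and they did not all go one way. In unscaled counts, Stag3 was lower in the FL/FL libraries, at 21 and 14 against 50 and 35. Smc1b (24 and 12 against 3 and 5) and Slc25a31 (4 and 15 against 2 and 1) were higher, and Dazl (7 and 0 against 2 and 3) overlapped. The median log2 difference of the list was 2.25, and 1.81 over the 5 genes left without Tex11, which had 0 and 1 counts in the FL/FL libraries and 0 and 0 in the WT/FL libraries. Such values rest partly on the prior count that the fit adds and give no bound. Of 10 genes for RB turnover and chromatin partners 2 were higher and 1 lower, with a median of -0.12. Rbbp8, for the RB-binding protein CtIP, had the largest rise, at 47.8 and 44.3 CPM against 35.1 and 36.9, or 0.36 ± 0.0909 (adjusted p = 0.00333). Ccnf, for the cyclin of an E2F-degrading ubiquitin ligase, had the largest fall, at 3.21 and 2.42 against 8.52 and 7.54, or -1.51 ± 0.159 (adjusted p = 6.08e-08).

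Patterns over the 16 group means of log2 CPM are given as a description, since most genes moved with the day. Among the members, E2f8 and Rbl1 were the most alike pair (Pearson's r = 0.99), followed by E2f8 with E2f1 and with E2f6 (0.98 each), and E2f4 and Rbl2 were the most opposed pair (r = -0.92), while Rbl1 and Rbl2 had r = -0.89. Outside the family, the genes most like E2f1 included Hirip3 (r = 0.986), Chaf1b, Lmnb2 and Qdpr (each 0.985), of which Chaf1b acts in chromatin assembly during replication. Those most like E2f4 were Itga5 (0.978), Usp46 (0.975), Apbb2 and U2surp (0.974 each) and Drg2 (0.973). Those most like Rbl2 were Dnajc28 (0.992), Tcp11l2 (0.990), Abcd2 (0.988), Chp1 and Camk1d (0.987 each).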

How the data were processed

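RNA was sequenced from 32 BMDM libraries in 16 groups of genotype, treatment and day. The authors deposited estimated counts per gene for each library. Per the submitters' processing notes and the study's methods, reads were demultiplexed with JE, checked with FastQC 11.9, quantified with Salmon on GRCm39 and summed per gene with tximport, while DESeq2 1.32 was named for their own tests. The Salmon version, annotation release and strand setting are not given in the sources used here. The values are whole numbers and were used as deposited.

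Counts of 54281 identifiers (0 rows without a gene) were named by GENCODE vM39, which held 51048 of them, with 0.32% of counts unmatched. Genes were filtered with a minimum count of 10, scaled by TMM and tested with edgeR 4.0.16 in R 4.3.3 (robust quasi-likelihood test, 16 group means, 16 residual degrees of freedom, Benjamini-Hochberg adjustment over 15257 genes). A gene passed at an adjusted p below 0.01, and the study's thresholds add an absolute log2 fold change above 1.5. Standard errors were derived from the F statistic. CPM are per TMM-scaled library. Totals of 35120505 to 63760884 counts and a biological coefficient of variation of 0.0912 set the precision. Ratios were tested with an exact permutation test within days. On simulated counts for the day 4 genotype comparison (14825 genes), 39 of 67 genes changed by a log2 of 0.5, 56 of 67 changed by 1 and 65 of 66 changed by 2.5 were recovered, with 1 false call. The changed genes were drawn only from those above a minimum mean count, and no gene changed with the day otherwise. These rates therefore do not cover groups with few counts, such as E2f7 on day 4 or the germline genes.

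The members and lists were chosen with earlier results of these data known. Outside the members, Trex1, the gene of each list with the largest rise and the largest fall on day 4 among those that passed, and the 5 genes most correlated with E2f1, E2f4 and Rbl2 were named, except for 1 that is not reported here; genes whose exons overlap a member's (Aktip, Rcbtb2, Lpar6, Gm2788) were added after their values were seen. Alternatives were other scaling (RLE, upper quartile), filters, thresholds, DESeq2 1.42.0, a fit of the 16 4-OHT-treated libraries, the untreated FL/FL group as the control, the longest transcript as gene length, and leaving out each library. Shared reads were judged from 31-base words common to annotated transcripts.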

Additional observations from a re-analysis of the deposited data

Results flagged for a closer look

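For 3 members a genotype difference itself differed between days or treatments, each in edgeR's quasi-likelihood test of that difference. The log2 genotype difference of E2f7 after 4-OHT was lower on day 4 than on day 3, with a change of -2.46 ± 0.455 (SE; adjusted p = 0.000664), and lower than on day 1, with a change of -2.63 ± 0.336 (adjusted p = 1.45e-06). On day 4 it differed from that in untreated cells by -2.35 ± 0.374 (adjusted p = 3.45e-05). All 3 rest on few counts, since E2f7 had 8 and 13 counts in the 4-OHT-treated FL/FL libraries of day 4. The change from day 3 to day 4 also rests on 11 and 28 counts in the FL/FL libraries and 25 and 24 in the WT/FL libraries of day 3, and it was -2.09 (adjusted p = 0.0503) without their day 3 library 2 and -2.09 (adjusted p = 0.0123) without their day 4 library 1. Rb1 also had a lower genotype difference on day 4 than on day 1, by a change of -0.48 ± 0.0944 (adjusted p = 0.000456). For Rbl1 the genotype difference after 4-OHT exceeded that in untreated cells by 0.58 ± 0.126 on day 3 (adjusted p = 0.00313), with 0.51 (adjusted p = 0.0327) without 4-OHT-treated WT/FL library 1 of that day.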

How the results depend on the processing

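Of 71 results of members that passed, 0 reversed under any alternative, and 21 missed the threshold under at least 1, of which 3 did so in a setting other than leaving out a library. No paired analysis was possible because the labels give no replicate numbers. Among results that had not passed, the genotype difference after 4-OHT reversed for E2f3 on day 1 (-0.15) and E2f6 on day 3 (0.07) with the untreated FL/FL group as the control, and for Rbl1 on day 1 (0.00 with upper-quartile factors, a minimum count of 50 or the fit of 16 libraries). With single libraries left out, values crossed 0 for E2f1 on days 1 (-0.02 to 0.03), 3 (-0.03 to 0.08) and 4 (-0.26 to 0.08), E2f3 on days 1 (-0.03 to 0.07) and 2 (-0.04 to 0.18), E2f4 on days 2 (-0.02 to 0.09) and 3 (-0.07 to 0.11), E2f6 on days 1 (-0.07 to 0.01) and 3 (-0.09 to 0.07), E2f8 on day 2 (-0.22 to 0.04), Rbl1 on day 1 (-0.04 to 0.02) and the ratio of activators to repressors (-0.03 to 0.05). The members that passed then numbered 0 to 2 on day 2 and 2 to 4 on day 4, with 2 without FL/FL library 1. Genes past both thresholds among all tested numbered 2, 89, 133 and 454 on days 1 to 4. They numbered 35, 150 and 202 on days 1 to 3 with no filter, 1, 157 and 255 with the untreated FL/FL group as the control, and 258, 442 and 970 on days 2 to 4 at an adjusted p below 0.05 and a log2 fold change above 1. Without single libraries they numbered 1 to 2 on day 1, 63 to 91 on day 2, 79 to 141 on day 3, where 79 is without 4-OHT-treated WT/FL library 1, and 355 to 458 on day 4. The cause of these shifts was not tested. E2f7 on day 2 passed with the untreated FL/FL group as the control (-0.68). A library left alone in its group was assumed to vary like the others. Over the longest transcripts, a length chosen after seeing the data, the mean log2 ratio of Rbl1 to Rbl2 in untreated WT/FL cells of day 2 was -0.11 in place of 0.45. On day 4 after 4-OHT E2f7 rests on counts of 8 to 149.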
